A study of Mus musculus with 2 samples.

Results

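The genes described here are the tumour suppressor Trp53, its antagonist Mdm2, 4 genes known as p53 targets (Cdkn1a, Ccng1, Bax and Gadd45a) and 4 further inhibitors of cyclin-dependent kinases (Cdkn1b, Cdkn2a, Cdkn2b and Cdkn2c). They were listed by gene symbol, with earlier results of these data known, and make up 10 of the 32285 genes counted. The counts come from single-cell RNA sequencing (10x Genomics 3’ chemistry) of GL261, a glioma cell line of C57BL/6 mice, with 1 library per culture. Adherent cells were grown in DMEM with 10% FBS to about 80% confluency. Neurosphere cells were grown for 12 days as floating aggregates in the same medium with EGF (20 ng/ml), FGF (20 ng/ml) and B-27 added. Both cultures were treated with trypsin, per the labels, and neurospheres were also broken up through a series of pipettes, so dissociation differed between the cultures. Both were frozen in medium with DMSO before they were sequenced.

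The p53 protein is a transcription factor that is held at a low level by the ubiquitin ligase Mdm2, itself a p53 target, and that is released after DNA damage and other stress. It then switches on genes that stop the cell cycle, such as Cdkn1a (p21), and genes that take part in cell death, such as Bax. The CDK inhibitors act on the same brake: the INK4 proteins (from Cdkn2a, Cdkn2b and Cdkn2c) bind Cdk4 and Cdk6, while p21 and p27 (Cdkn1b) bind complexes of cyclins with Cdk2. Cdkn2a also encodes p19Arf, which binds Mdm2 and so links both arms, and loss of this locus or of p53 is frequent in glioma. GL261 has been reported to carry a point mutation in Trp53. The UMI counts (unique molecular identifiers, 1 per captured RNA molecule) do not show the sequence of the transcripts, so the state of Trp53 was not tested.

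Promoter windows (250 bases before to 50 bases after a transcript start) were taken from RefSeq on GRCm38.p6 and were found for all 10 genes, with 13 windows in all. The decamer consensus of p53, of which full binding elements hold a pair, was searched on both strands, and matched in the windows of 6 genes: Trp53, Mdm2, Cdkn1a, Ccng1, Bax and Gadd45a. None of the windows of Cdkn1b, Cdkn2a, Cdkn2b and Cdkn2c held it. The decamer was in 6 of the 13 windows, against 8.36% of all 32851 windows. The stretches with a match are shown, and all come from Trp53, Mdm2 or the genes known as p53 targets. Each is written 5’ to 3’ on the strand of the gene, with the matching decamer in capitals, and lies upstream of the RefSeq start. For Gadd45a the GENCODE annotation sets the start of the gene 50 bases further upstream, so its decamer lies within the gene as positioned there and its stretch is cut at the end of the decamer.
Trp53, chr11:69580259-69580318, plus strand: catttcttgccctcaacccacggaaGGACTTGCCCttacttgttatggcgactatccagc
Mdm2, chr10:117710910-117710969, minus strand: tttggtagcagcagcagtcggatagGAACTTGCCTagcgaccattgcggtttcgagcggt
Cdkn1a, chr17:29090881-29090962, plus strand: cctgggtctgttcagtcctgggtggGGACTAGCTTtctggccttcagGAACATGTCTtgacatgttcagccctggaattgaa
Ccng1, chr11:40755437-40755496, minus strand: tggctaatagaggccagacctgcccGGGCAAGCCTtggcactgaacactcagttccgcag
Bax, chr7:45467065-45467124, minus strand: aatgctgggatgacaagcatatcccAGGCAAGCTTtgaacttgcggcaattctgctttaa
Gadd45a, chr6:67037438-67037472, minus strand: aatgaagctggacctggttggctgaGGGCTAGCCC

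Cdkn1a was the only one of the 10 genes with more than 1 match in a window, and 0.347% of all windows held at least 2. Its matches lie 73 and 51 bases before the RefSeq start of that window, which need not be the start most used in these cells. Only exact matches are in capitals, so near matches beside them are not marked. Whether these matches pair as a binding element was not tested. The other motifs searched were GGGCGG (8 of the 10 genes, and 35.7% of all windows), CCAAT (7 genes, and 37.4%), the E2F core TTTNNCGC (Mdm2 and Cdkn2a, and 5.17%) and the ATF4 core TGATGNAA (0 genes, and 3.97%). These are matches of letters in short windows, and known elements of several targets lie in introns outside them. The windows of the 10 genes had a median GC content of 60.3%, against 52.7% for all windows.

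The libraries held 5764 adherent and 4951 neurosphere cells, and 5051 and 4276 cells were kept after low-content cells were removed. These cells gave 46290996 and 64943938 UMIs after gene removal, with medians of 8260 and 13198.5 UMIs per cell, so neurosphere cells were sequenced more deeply. A total of 12 cell barcodes occurred in both libraries. The labels call the cells astrocytoma. Of 9 astrocyte markers, Sox9 and Aqp4 had 0 UMIs in both libraries, while Slc1a3 and S100b gave most of the UMIs of the list. The summed level of 5 oligodendrocyte precursor markers was 401 CPM in the adherent library and 1991 CPM in the neurosphere library, and that of 8 immune markers was 13.3 and 5.11 CPM, with Ptprc at 1 and 0 UMIs. The summed level of 5 neuron markers was 51.5 and 236 CPM, with Snap25 at 0 in both. That of 6 fibroblast and endothelial markers was 2.03 and 61.0 CPM, nearly all of the latter from Dcn, with Cdh5 at 0 in both. The part of these differences in the results below was not tested.

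Levels were compared between the cultures first. The level of a gene is given as CPM, the UMIs of the gene divided by all UMIs of the kept cells of a library and scaled to 1000000, and differences are log2 ratios of the neurosphere to the adherent level. With 1 library per culture there is no replicate error and no test was run. The 95% intervals given (Poisson for CPM, conditional for log2 fold changes, binomial for shares of cells) cover counting error only, and the culture and the library cannot be told apart. Of the 10 genes, Cdkn2c was more than 2-fold higher in neurosphere cells, while Gadd45a and Cdkn2b were more than 2-fold lower, and 7 lay between. Among the 14654 genes that had 50 UMIs or more in the pair of libraries (called measured here), 21.7% were more than 2-fold higher and 11.7% more than 2-fold lower, so 1 and 2 of 10 are close to these shares. The median of the 10 log2 fold changes was 0.13, against 0.32 for all measured genes. With TMM scaling, which lowers every log2 fold change by 0.22, the split of all genes moved from 3181 higher and 1711 lower to 2354 higher and 2128 lower, while the counts for the 10 genes stayed at 1 and 2.

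**Figure D1:**
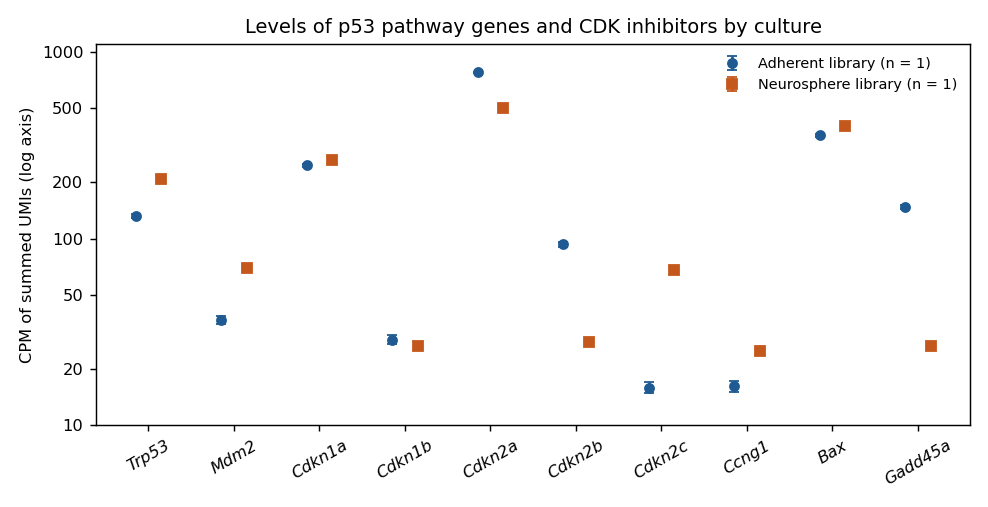
CPM of summed UMIs on a log axis for each of the 10 genes in the adherent (circles) and neurosphere (squares) library, with 95% Poisson counting intervals, 1 library per culture. Cdkn2c stands higher in the neurosphere library (68.2 against 15.9 CPM), Gadd45a and Cdkn2b stand lower, and Cdkn1a, Cdkn1b and Bax lie close together.

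**Figure D2:**
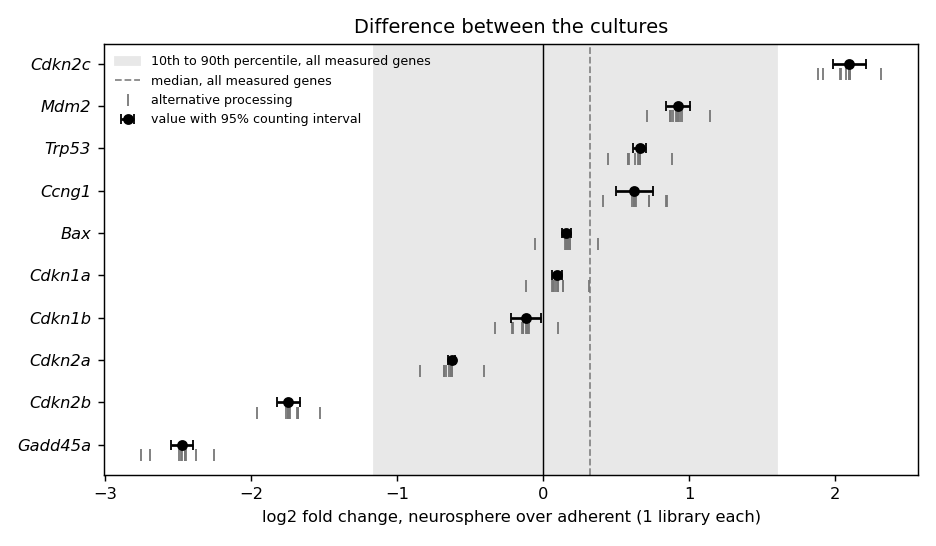
Log2 fold change of each gene (neurosphere over adherent), with its 95% counting interval as a black bar and the values under alternative processing as grey ticks. The grey band spans the 10th to 90th percentile of all measured genes (-1.16 to 1.60), and Cdkn2c, Cdkn2b and Gadd45a lie outside it.

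Trp53 itself (chr11:69580359-69591873, plus strand) was higher in neurosphere cells. It gave 6118 UMIs and 132 CPM (129 to 136) in adherent cells and 13584 UMIs and 209 CPM (206 to 213) in neurosphere cells. The log2 fold change was 0.66 (0.62 to 0.71), which is higher than that of 65.5% of all measured genes. Mdm2, the ligase that targets p53 for degradation (chr10:117688875-117710758, minus strand), was higher as well, at 36.7 CPM (34.9 to 38.4) in the adherent library and 69.6 CPM (67.6 to 71.6) in the neurosphere library. Its log2 fold change of 0.92 (0.84 to 1.01) lay just under the 2-fold limit and among 12 alternatives passed it only with the total taken over all genes, mitochondrial and ribosomal ones included (1.14).

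Other genes that control p53 were read from a list of 13, of which 11 had at least 50 UMIs. Of these, 2 were more than 2-fold higher, 0 were more than 2-fold lower and 9 lay between, with a median log2 fold change of 0.20. For this and the other lists, the shares of 21.7% higher and 11.7% lower among all measured genes are the background. The members over 2-fold were Ep300, an acetyltransferase that acts on p53 (1.10, from 34.9 to 74.7 CPM), and Ppm1d, a phosphatase that dampens p53 signalling (1.06, from 557 and 1625 UMIs). Mdm4, the partner of Mdm2, was at 32.1 CPM in the adherent library and 36.3 CPM in the neurosphere library (0.18). The lowest values of the list were those of Npm1, a nucleolar protein (-0.44), and Chek1, a DNA damage kinase (-0.16). The relatives Trp63 and Trp73 had 1 and 9 UMIs in adherent cells and 2 and 32 in neurosphere cells, too few to measure.

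Of the 4 known p53 targets, Ccng1 was higher in neurosphere cells, as Trp53 and Mdm2 were, Gadd45a was lower, and Cdkn1a and Bax were nearly level. Cdkn1a, the gene of the CDK inhibitor p21 (chr17:29090976-29100727, plus strand), had similar levels in the cultures, with 11438 UMIs and 247 CPM (243 to 252) in adherent cells and 17161 UMIs and 264 CPM (260 to 268) in neurosphere cells. Its log2 fold change was 0.10 (0.06 to 0.13), and it changed sign under TMM scaling (-0.12), so no direction is given for it.

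Bax, which opens the outer mitochondrial membrane in apoptosis (chr7:45461697-45466898, minus strand), was at 357 CPM (351 to 362) in the adherent library and 398 CPM (393 to 403) in the neurosphere library. The log2 fold change of 0.16 (0.13 to 0.19) was below the median of all genes and turned to -0.06 with TMM scaling. A same-strand gene, Gm45808, overlaps 915 bases of Bax in the GENCODE annotation and is not a row of the matrix used here. Ccng1, the gene of the p53-induced cyclin G1 (chr11:40748552-40755311, minus strand), was higher in neurosphere cells, at 24.9 CPM (23.7 to 26.1) against 16.2 CPM (15.0 to 17.4), which is a log2 ratio of 0.62 (0.50 to 0.75).

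Gadd45a showed the widest difference of the 10 genes. It encodes a small protein induced by DNA damage and by other stress, and lies at chr6:67035096-67037457 on the minus strand. Adherent cells held 6841 UMIs of it and 148 CPM (144 to 151), and neurosphere cells 1727 UMIs and 26.6 CPM (25.3 to 27.9), so its level was 5.56-fold higher in adherent cells. The log2 fold change of -2.47 (-2.55 to -2.40) was lower than that of all but 3.30% of measured genes. An antisense transcript, E230016M11Rik, overlaps 859 bases of Gadd45a and was counted separately, with 677 adherent and 945 neurosphere UMIs.

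A list of 24 other p53 targets gave 20 measured genes, of which 3 were more than 2-fold higher in neurosphere cells, 4 were more than 2-fold lower and 13 lay between. Their median log2 fold change was 0.08, against 0.32 for all genes, and it was -0.14 with TMM scaling, so the list had no common direction. The genes over 2-fold higher were Btg2, an antiproliferative gene (2.53, from 32.0 to 185 CPM), Trp53inp1, a stress-induced p53 partner (1.71, from 6.55 to 21.4 CPM), and the repair nuclease Ercc5 (1.27). Those over 2-fold lower were the stress cytokine Gdf15 (-3.12, from 318 to 36.4 CPM), the kinase Plk2 (-2.86, from 36.8 to 5.05 CPM), the Akt inhibitor Phlda3 (-2.35) and Fdxr (-1.38). Bbc3, the gene of the BH3-only protein Puma, was at 31.3 CPM in the adherent library and 46.9 CPM in the neurosphere library. Perp had 0 UMIs in both libraries, and Pmaip1 had 0 and 1 UMIs.

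The other BCL2 family genes act with or against Bax. Of 10 measured, 1 was more than 2-fold higher (Bcl2l11, the gene of Bim, 1.10) and 2 were more than 2-fold lower (Hrk, -1.52, and Bok, -1.41), with a median of -0.08. Among all measured genes, 21.7% were higher and 11.7% lower, so nothing is read from these small counts. Bid, which activates Bax, had 324 and 776 UMIs (0.77).

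The INK4 genes differed from each other in direction. Cdkn2c, the gene of p18Ink4c (chr4:109660876-109667189, minus strand), was 4.28-fold higher in neurosphere cells. It gave 738 UMIs and 15.9 CPM (14.8 to 17.1) in adherent cells and 4430 UMIs and 68.2 CPM (66.2 to 70.3) in neurosphere cells, and its log2 fold change was 2.10 (1.98 to 2.21), above that of 93.6% of measured genes.

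Cdkn2b, the gene of p15Ink4b (chr4:89306299-89311039, minus strand), stood 3.35-fold higher in adherent cells. The adherent library held 4318 UMIs and 93.3 CPM (90.5 to 96.1), and the neurosphere library 1808 UMIs and 27.8 CPM (26.6 to 29.1), a log2 fold change of -1.74 (-1.82 to -1.66).

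Cdkn2a (chr4:89274471-89294653, minus strand), which lies 11645 bases from Cdkn2b on the same strand, was lower in neurosphere cells too, but by less than 2-fold. Its level was 775 CPM (767 to 783) in the adherent library and 502 CPM (496 to 507) in the neurosphere library, from 35885 and 32592 UMIs, and the log2 fold change was -0.63 (-0.65 to -0.61). RNA of this gene was detected in nearly all cells of both cultures. The transcripts for p16Ink4a and p19Arf share their 3’ exons and cannot be told apart in 3’ counts.

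Cdkn1b, the gene of p27 (chr6:134920401-134925513, plus strand), was close to level, with 1330 UMIs and 28.7 CPM (27.2 to 30.3) in adherent cells and 1722 UMIs and 26.5 CPM (25.3 to 27.8) in neurosphere cells. The log2 fold change of -0.12 (-0.22 to -0.01) became 0.10 with the total taken over all genes. Among the 6 other CDK inhibitors and GADD45 relatives, Cdkn1c was more than 2-fold higher (29 and 115 UMIs). Gadd45g (-2.64, from 28.0 to 4.48 CPM) and Cdkn3, a phosphatase of Cdk1 and Cdk2 (-1.18), were more than 2-fold lower. Gadd45b (-0.14), Cdkn2d, the gene of p19Ink4d (0.15), and Ccng2, the relative of Ccng1 (0.71), lay between, so Gadd45g, like Gadd45a, was more than 2-fold lower and Gadd45b was not.

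The cyclins, kinases and pocket proteins that these inhibitors act on had a median log2 fold change of 0.66, with 4 of 17 more than 2-fold higher, 1 lower and 12 between, so the share over 2-fold higher is close to the 21.7% of all measured genes. Those over 2-fold higher were Ccne2 (1.82), Cdk2 (1.65, from 788 and 3468 UMIs), Skp2, which marks p27 for degradation (1.22), and Rb1 (1.02). Ccnd2 was lower (-2.20, from 427 to 93.3 CPM), while Ccnd1 was at 893 CPM in the adherent library and 1412 CPM in the neurosphere library (0.66). The INK4 partners Cdk4 (0.72) and Cdk6 (-0.16) lay between.

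The share of cells with a UMI followed the depth as well as the level, so cells were also thinned at random to 5000 UMIs. Cells below that depth were left out (587 adherent and 80 neurosphere cells), which left 4464 adherent and 4196 neurosphere cells. Without thinning, Trp53 was detected in 63.8% and 83.1% of adherent and neurosphere cells, and after thinning in 46.3% (44.9 to 47.8) and 60.1% (58.6 to 61.5). Mdm2 was found in 26.9% and 59.3% of cells, and after thinning in 16.7% and 28.9%. Cdkn2c was found in 13.3% and 50.9% of cells, and after thinning in 8.11% (7.32 to 8.95) and 25.4% (24.1 to 26.7). Thinning thus left the order of the cultures in place for these 3 genes and narrowed the gap for each of them.

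Gadd45a was detected in 57.5% and 24.1% of cells, and after thinning in 42.9% (41.5 to 44.4) and 11.2% (10.2 to 12.2). Cdkn2b was detected in 47.3% and 31.9%, and after thinning in 33.6% and 13.1%. Cdkn2a was detected in 97.8% and 97.6% of cells without thinning and in 96.8% and 89.8% after it, and cells with 3 or more of its UMIs made up 71.1% of adherent and 43.3% of neurosphere cells. With the share of cells with any UMI of Cdkn2a near its ceiling in both cultures, that share shows little of the difference in level.

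Bax was detected in 90.7% and 97.2% of cells (83.0% and 85.9% after thinning), Ccng1 in 13.2% and 29.3% (7.08% and 12.3%), and Cdkn1b in 20.9% and 29.4% (12.7% and 12.1%). The gap in the share of Cdkn1b was thus not seen at equal depth. Cdkn1a was detected in 73.7% and 77.7% of cells, but in 63.4% and 58.0% after thinning, against the order of its CPM, so no order is read from these shares. All 10 genes are expressed by the line, and no cell type that should lack them was present to set a background for free RNA.

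**Figure D3:**
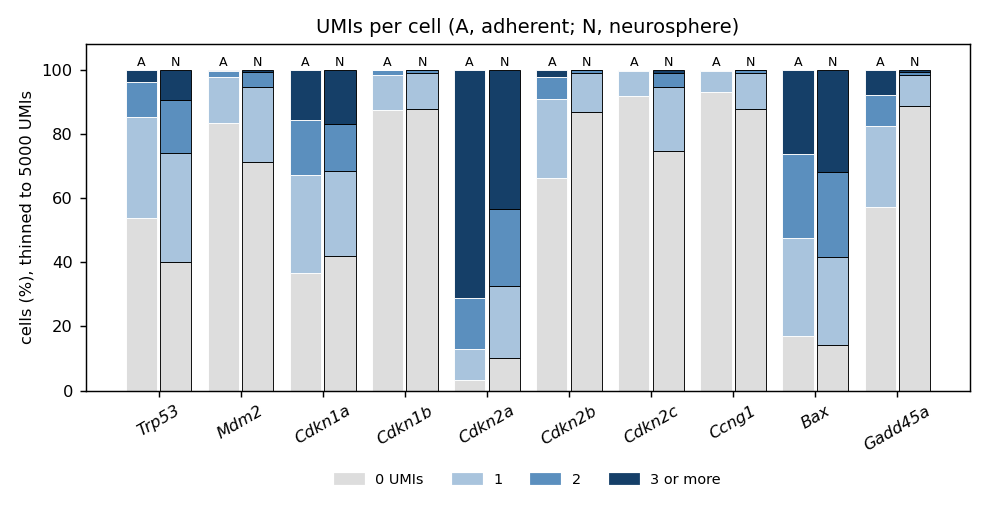
Share of cells (percent) with 0, 1, 2 or at least 3 UMIs of each gene in cells thinned to 5000 UMIs, for adherent (A, 4464 cells) and neurosphere (N, 4196 cells). Cells with fewer UMIs are left out. Cells with at least 3 UMIs of Cdkn2a made up 71.1% of adherent and 43.3% of neurosphere cells, and cells with 0 UMIs of Gadd45a made up 57.1% of adherent and 88.8% of neurosphere cells.

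The spread between cells, given as the variance of thinned UMIs over their mean (1 for pure counting), was widest for Cdkn1a and Gadd45a. It was 1.58 in adherent and 2.51 in neurosphere cells for Cdkn1a, with up to 12 and 32 UMIs in a cell, and 2.12 and 2.07 for Gadd45a. For Mdm2 it was 1.10 and 1.38, with up to 4 and 21 UMIs in a cell, and 1.03 in neurosphere cells without the 3 highest cells. Bax stayed near counting noise at 1.03 and 1.07. Cdkn1a, although nearly level between the cultures, was thus spread more unevenly over neurosphere cells.

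To see which cells held the UMIs, the kept cells of each library were ranked by the share of their UMIs on a gene list and cut into 5 quintiles of about equal size. The lists were G1/S genes, G2/M genes, genes of the integrated stress response (the Atf4 programme set off by amino acid shortage, unfolded protein and other stress) and the 24 other p53 targets. Quintiles are ranges of a continuous score and not cell types: between 337 and 845 cells lay within 10% of the upper limit, depending on the list and library. Depth differed between quintiles, most for the G2/M list in neurosphere cells (medians of 8442 UMIs in the lowest and 17861 in the highest), and no phase was called for single cells. Free RNA enters these scores as well, and its part was not tested. Of the 29 ratios of highest to lowest quintile beyond 0.5 on the log2 scale, 29 kept their sign when cells were thinned to 5000 UMIs.

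Gadd45a followed the integrated stress response list in both cultures. From the lowest to the highest quintile it went from 68.8 to 307 CPM in adherent cells, a 4.46-fold difference, and from 16.2 to 63.3 CPM in neurosphere cells, a 3.92-fold difference. In adherent cells the level was higher in each successive quintile (68.8, 102, 116, 166 and 307 CPM), while in neurosphere cells the first 3 quintiles lay at 15.1 to 16.2 CPM and the last stood apart. Of the 865 UMIs in that last quintile, 326 came from 83 cells (cluster 10, described below). Without these cells it was at 42.4 CPM, a 2.63-fold difference from the lowest quintile of the list, a choice made after the values were seen. Between the cultures, 7 of the 14 measured genes of the list were more than 2-fold lower in neurosphere cells and 0 higher (11.7% and 21.7% of all measured genes), with a median of -0.92 against 0.32 for all genes and a summed level of 3122 CPM in the adherent library and 1493 CPM in the neurosphere library. Its lowest members were Nupr1, a stress-induced nuclear protein (-4.09, from 172 to 10.1 CPM), and Ddit3, the gene of the transcription factor Chop (-2.92, from 365 to 48.4 CPM), and its highest were Vldlr (0.80) and Ddit4 (-0.05).

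Cdkn1a followed the same list, from 183 to 304 CPM in adherent cells (log2 ratio 0.73) and from 171 to 413 CPM in neurosphere cells (1.27, and 1.21 without the same 83 cells). Cdkn2b followed it in adherent cells, from 70.5 to 116 CPM (0.71), and lay at 30.6 and 26.5 CPM in the outer quintiles of neurosphere cells. Bax (347 and 354 CPM) and Cdkn2a (765 and 787 CPM) hardly differed between the outer quintiles of adherent cells. In neurosphere cells they differed by little, but beyond counting error. Bax went from 377 to 419 CPM (log2 ratio 0.15) and Cdkn2a from 508 to 468 CPM (-0.12).

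Along the p53 target list, Mdm2, Cdkn1a and Gadd45a were higher in the highest quintile of both cultures, as was Cdkn2b, which is not counted among the p53 targets here. Mdm2 went from 30.9 to 44.5 CPM in adherent and from 60.7 to 89.4 CPM in neurosphere cells, and Cdkn1a from 195 to 307 CPM and from 220 to 388 CPM. Gadd45a went from 106 to 228 CPM and from 14.1 to 63.8 CPM. Of the 1727 UMIs of Gadd45a in neurosphere cells, 326 came from the 83 cells of neurosphere cluster 10. The part of these cells in its differences along this list and along the cell cycle lists was not tested. Cdkn2b went from 74.9 to 116 CPM and from 25.6 to 36.5 CPM, log2 ratios of 0.63 and 0.51, against 0.52 and 0.56 for Mdm2. Without the 3 cells of neurosphere cluster 10 highest in Mdm2, a choice made after the values were seen, the neurosphere ratio of Mdm2 was 0.49. The targets Bax (log2 ratios of 0.01 and -0.10) and Ccng1 (-0.38 and 0.21) did not go up in both cultures. Trp53 was at 128 and 135 CPM in the outer quintiles of adherent cells, and at 241 and 165 CPM in those of neurosphere cells. The list was led by few genes, so it was also used without Gdf15, Phlda3 and Btg2, a choice made after the values were seen. The log2 ratio of Cdkn1a then went from 0.65 to 0.16 in adherent cells and from 0.82 to 0.55 in neurosphere cells, while that of Mdm2 was 0.79 and 0.51 and that of Gadd45a 0.83 and 1.95. That of Cdkn2b went to 0.05 (-0.09 to 0.20) in adherent cells, so it was not higher there beyond counting error, and to 0.30 in neurosphere cells.

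The cell cycle lists separated the inhibitors from each other. Cdkn2c was higher in neurosphere cells with more G2/M RNA, from 42.5 to 109 CPM (log2 ratio 1.36), and in adherent cells from 13.8 to 23.3 CPM (0.76). In neurosphere cells it also followed the G1/S list, from 35.6 to 81.3 CPM, whereas in adherent cells it lay at 17.1 and 16.9 CPM. Cdkn1b was highest in the top G2/M quintile of both cultures, at 44.3 CPM in the adherent library and 36.4 CPM in the neurosphere library, against 19.4 and 20.2 CPM in the quintiles where it was lowest.

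Cdkn2b went the other way along the G1/S list, from 117 to 67.4 CPM in adherent and from 35.7 to 20.9 CPM in neurosphere cells. Gadd45a was lower in cells with more G2/M RNA, from 243 to 112 CPM and from 38.6 to 19.7 CPM. Trp53 was higher in neurosphere cells with more G1/S RNA, from 138 to 258 CPM, and in adherent cells with a log2 ratio of 0.44. Cdkn1a in neurosphere cells went from 350 to 222 CPM along the G1/S list. Bax held nearly the same level in all quintiles of both cell cycle lists, between 345 and 366 CPM in adherent and between 387 and 410 CPM in neurosphere cells.

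**Figure D4:**
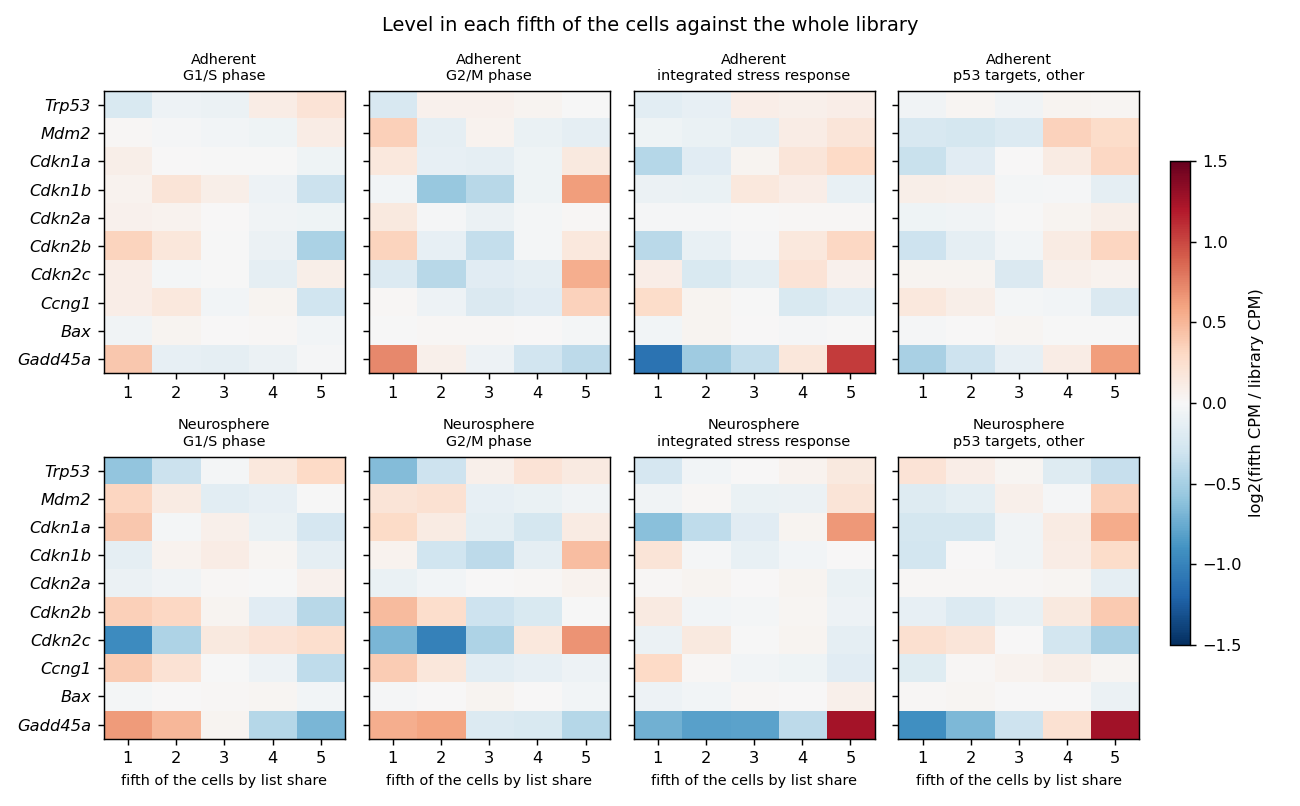
Log2 ratio of the CPM in each quintile of the cells to the CPM of the whole library, for 10 genes (rows), 5 quintiles from lowest to highest share of the list (columns) and 4 lists, in adherent (top) and neurosphere cells (bottom). Gadd45a turns from blue to red along the stress response list in both cultures, Cdkn2c does so along the G2/M list in neurosphere cells, and Bax stays pale.

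The cell cycle lists themselves were also read between the cultures. Of 26 G1/S genes, 6 were more than 2-fold higher in neurosphere cells and 0 were lower, with a median of 0.62, against 21.7% of all measured genes higher, 11.7% lower and a median of 0.32. The replication genes Mcm2 (1.93) and Fen1 (1.78) stood highest, and Cdca7 (-0.31) and Pola1 (-0.23) lowest. Of 33 G2/M genes, 0 were more than 2-fold higher and 2 were lower, Psrc1 (-2.01) and Anln (-1.44), with a median of -0.11, and Kif11 (0.92) and Hmgb2 (0.86) stood highest. A list of genes known to respond to dissociation of tissue had 5 of 13 measured genes more than 2-fold higher and 3 lower, with a median of 0.72. Its ends were Nr4a1 (2.00) and Egr1 (1.89), and Ier3 (-2.51) and Atf3 (-1.16). The part of dissociation in the levels of Gadd45a and Cdkn1a was not tested.

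The cells of each library were then clustered, which gave 11 adherent and 11 neurosphere clusters. Clusters are given by number and were not named. Among the 2000 variable genes used for clustering were Cdkn1a, Cdkn1b, Cdkn2b and Gadd45a in adherent cells and Mdm2, Cdkn1a and Gadd45a in neurosphere cells, so their differences between clusters are a description. Adherent cluster 10 (47 cells) had a median of 2647 UMIs against 8260 for its library, and ranges are therefore given without it, a choice made after the values were seen.

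Cdkn2c spanned 7.11 to 24.6 CPM over the adherent clusters and 29.5 to 115 CPM over the neurosphere clusters, with no overlap with or without cluster 10. Over all 22 clusters it was the only one of the 10 genes without overlap, and 6.74% of measured genes had ranges that were higher in neurosphere cells without overlap. Mdm2 spanned 20.1 to 46.7 CPM in adherent and 55.4 to 224 CPM in neurosphere cells, without overlap once cluster 10 (131 CPM) was left out, as for 14.2% of measured genes. None of the 10 genes was lower in neurosphere cells without overlap, against 1.99% of measured genes over all clusters and 5.19% without cluster 10. The ranges of the other 8 genes overlapped. Trp53 spanned 109 to 160 CPM and 115 to 283 CPM, Cdkn2a 668 to 871 CPM and 417 to 689 CPM, and Cdkn2b 38.5 to 134 CPM and 15.2 to 45.1 CPM. Bax was the most even, at 340 to 385 CPM and 353 to 471 CPM. Cdkn1b spanned 8.69 to 54.0 CPM and 19.2 to 54.6 CPM, and Ccng1 11.9 to 21.8 CPM and 11.5 to 48.5 CPM.

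Neurosphere cluster 10 (83 cells, 1.94% of the kept cells) stood above the other neurosphere clusters, beyond counting error, in Gadd45a, Cdkn1a and Mdm2. It also had the highest values of Trp53, Cdkn1b, Cdkn2b and Bax and the lowest of Ccng1 (11 UMIs), but for each of these its counting interval overlapped that of the next cluster. Its leading genes were Cox6a2, Ccl2, Nupr1, Lcn2 and Hmox1, and 0.524% of its UMIs lay on stress response genes, against 0.104% to 0.180% in the other neurosphere clusters. Gadd45a reached 342 CPM (306 to 381) there, against 12.3 to 54.5 CPM in the other neurosphere clusters. Cdkn1a reached 651 CPM (601 to 704). Mdm2 reached 224 CPM (195 to 256), but 3 cells held 63, 22 and 21 of its 213 UMIs there. Without these 3 cells, a choice made after the values were seen, Mdm2 was at 118 CPM (96.8 to 143) in the cluster, still above the other neurosphere clusters, and its log2 fold change between the cultures was 0.89. At the lower resolution of 0.8 the matching cluster (77 cells) had Mdm2 at 161 CPM (136 to 190). Leaving all 83 cells of cluster 10 out, a choice made after the values were seen, put the log2 fold change of Gadd45a between the cultures at -2.75 in place of -2.47.

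In adherent cells, Gadd45a was highest in cluster 0 (718 cells), at 320 CPM (304 to 336). Cdkn2a was at 871 CPM there, within counting error of the 863 CPM in cluster 3. Trp53 was at 109 CPM in cluster 0, its lowest value outside cluster 10, but within counting error of the 118 CPM in cluster 7. Cluster 0 had the highest share of stress response UMIs (0.371%) and the lowest share of G2/M UMIs (0.166%) among adherent clusters. Cdkn1b was at 54.0 CPM (48.1 to 60.4) in cluster 3, led by Spp1, Ccnf and Nusap1, against 42.1 CPM (36.9 to 47.9) in cluster 6, the next highest outside cluster 10. Cdkn1a, Cdkn2b and Cdkn2c had their highest values in cluster 3 too, but within counting error of the next cluster, and at resolution 0.8 Cdkn2b was highest in another cluster. In neurosphere cells Cdkn2c was highest in cluster 0, led by Depdc1b, Adgrb3 and Aspm, at 115 CPM. Its counting interval there overlapped that of cluster 9 (98.7 CPM). Ccng1 was highest in cluster 6, led by Enpp2, Mbp and Gpr17, at 48.5 CPM.

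**Figure D5:**
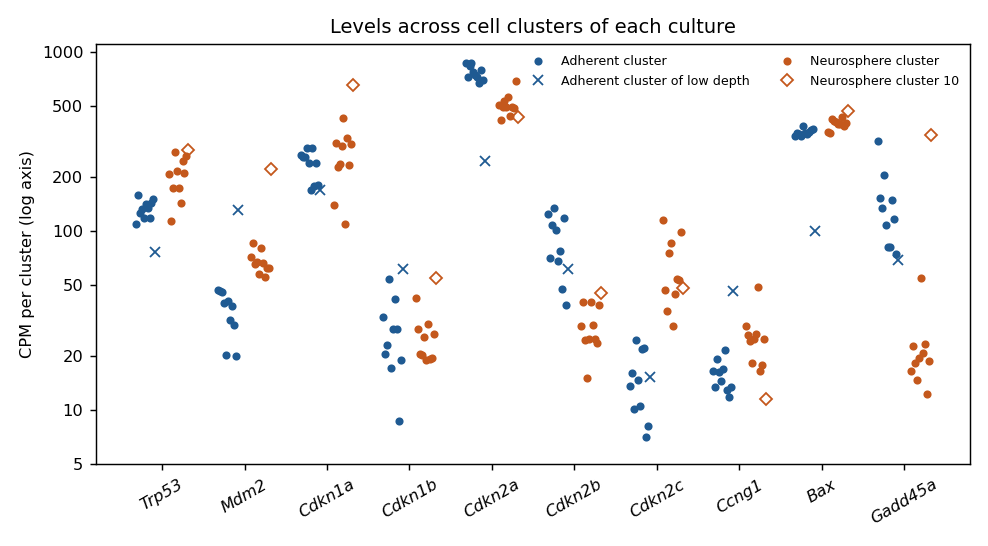
CPM of each gene in each of 11 adherent (blue) and 11 neurosphere (orange) clusters on a log axis, with the adherent cluster of low depth as a cross and neurosphere cluster 10 as an open diamond. The adherent and neurosphere points of Cdkn2c do not overlap, and the diamond stands above the other neurosphere clusters for Gadd45a (342 against at most 54.5 CPM), Cdkn1a (651 against 426) and Mdm2 (224 against 86.2, or 118 without 3 cells).

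Genes with the most similar pattern were sought among 7598 genes with at least 500 UMIs in both libraries, by Pearson’s r of log2(CPM + 1) over the 22 clusters, centred within each library. Clusters share their library and differ in depth, so the values are a description. The closest to Gadd45a were Ddit3 (r = 0.95) and Nupr1 (0.93), and without the cluster of low depth these were 0.97 and 0.93. Nupr1 was a leading gene of neurosphere cluster 10, where Gadd45a was at 342 CPM, and r without that cluster was not computed. Mdm2 was closest to Plekhf2 (0.94) and Aldh1l2 (0.93), which were 0.92 and 0.83 without the 3 cells of neurosphere cluster 10 highest in Mdm2. Cdkn1a was closest to Maff (0.88) and Fam110c (0.84). Cdkn2c was closest to Hist1h1e (0.87) and Prc1 (0.84), the latter a gene of cytokinesis. Trp53 was closest to Tfam (0.95) and Ppie (0.94), Cdkn1b to Hltf (0.89) and Csnk1a1 (0.88), and Cdkn2b to Sdcbp (0.84) and Pold4 (0.79). Cdkn2a was closest to Oat (0.95) and Psmb1 (0.95), Bax to Ssbp1 (0.99) and Supt4a (0.99), and Ccng1 to Cyp2j9 (0.88) and Spg7 (0.88).

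Several of these nearest genes were others without the cluster of low depth. Both were replaced for Cdkn2c, by Hjurp (0.92) and Bora (0.88), for Cdkn1b, by Cwf19l2 (0.89) and Lcorl (0.88), for Cdkn2a, by Blvrb (0.85) and Gpi1 (0.83), for Bax, by Krtcap2 (0.86) and Abhd14a (0.85), and for Ccng1, by Tsc22d4 (0.92) and Acot1 (0.82). One was replaced for Trp53, with Pfdn6 (0.95) ahead of Tfam (0.94), for Cdkn2b, with Dctn2 (0.84) after Sdcbp, and for Gadd45a, with Sqstm1 (0.95) after Ddit3. Mdm2 and Cdkn1a kept both of theirs. The values of the genes first named fell most for Cdkn2a (to 0.71 and 0.69), Bax (0.81 and 0.76) and Ccng1 (0.79 and 0.81).

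Within single cells, thinned to 5000 UMIs, the 10 genes were almost unrelated to each other. The 45 pairs had Pearson correlations of -0.03 to 0.15 in adherent and -0.06 to 0.09 in neurosphere cells, with the highest adherent value for the neighbours Cdkn2a and Cdkn2b. Counts this sparse hold correlations near 0, so the small values do not show that the genes vary independently.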

How the data were processed

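For each culture the authors deposited a raw count matrix (whole UMI counts per gene and cell, not normalized) for the cells called by Cell Ranger 7.0.1 per the labels, on mm10. The annotation release and the setting for introns are not given in the sources used here. The 10 genes and the gene lists were chosen with earlier results of these data known. The 13 mitochondrial and 101 ribosomal genes were removed, then cells under 1000 UMIs, or under 1250 (adherent) or 2250 genes (neurosphere), with limits taken from the study. Removing genes first left 5051 and 4276 cells, and the same limits applied before gene removal left 5073 and 4300, the numbers of cells the study kept. That order was tried as an alternative. Doublets were not removed. Counts were summed per library and given as CPM, with exact 95% intervals that cover counting error only. No test was possible with 1 library per culture. A difference was called by size alone (over 2-fold, at least 50 UMIs over both libraries).

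Named from each of 9 gene lists were the 2 highest and 2 lowest measured genes by log2 ratio of CPM with 1 added, together with Mdm4, Ppm1d, Ccnd1, Ccnd2, Cdk4, Cdk6 and Cdk2, and the 2 genes most like each of the 10, with and without the cluster of low depth. Other genes (Skp2, Rb1, Ercc5, Phlda3, Fdxr, Bbc3, Gadd45b, Cdkn2d, Perp and Pmaip1) were named after their values were seen, as were Trp63 and Trp73. Clustering used Seurat 5.3.0 in R 4.3.3 (2000 variable genes, 17 and 18 PCs, resolution 1.0), TMM factors edgeR 4.0.16, and the rest Python 3.11.15 with scipy 1.17.1. Positions are from GENCODE on GRCm38, and promoter windows from RefSeq.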

Additional observations from a re-analysis of the deposited data

How the results depend on the processing

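No paired analysis was possible because each culture is 1 library. The numbers of the 10 genes over 2-fold higher (1) and lower (2) held in 29 of 30 values under alternative settings. The settings that changed only the UMI minimum could not move these numbers, since no minimum was applied to the 10 genes. With the total taken over all genes, mitochondrial and ribosomal ones included, 2 genes were higher, as Mdm2 joined Cdkn2c. For all genes, a minimum of 10 UMIs gave 2651 lower, and no minimum gave 5491 higher and 4842 lower, since more genes of low count were then included. Cdkn1a, Bax and Cdkn1b changed sign under 1 of 12 settings each, and the other 7 genes under 0 of 12. Of 120 log2 fold changes of the 10 genes under alternatives, 33 lay outside the counting interval of the reported value, as did 33 of 100 ratios of outer quintiles, and 0 of the differences over 2-fold reversed. Resolution 0.8 or the removal of the cluster of low depth moved the ratio of highest to lowest cluster by over 1.5 times in 4 of 40 cases. Shares of cells depend on the depth chosen: at 3000 UMIs Cdkn2c was detected in 4.76% and 16.1% of adherent and neurosphere cells, and Gadd45a in 31.1% and 6.59%. With 1 library per culture, variation between cultures was not measured.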

Other observations

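The 713 adherent and 675 neurosphere barcodes left out for low content were also summed. In them the median mitochondrial share of UMIs was 48.8% and 87.0%, against 2.02% and 3.97% in kept cells. Gadd45a was at 219 CPM (175 to 271) in the left-out adherent and 85.3 CPM (63.1 to 113) in the left-out neurosphere barcodes, and Mdm2 at 89.3 CPM (62.2 to 124) and 87.0 CPM (64.6 to 115). Bax was at 214 and 339 CPM. Cdkn2c, at 12.8 CPM (4.14 to 29.8) and 66.1 CPM (46.8 to 90.8), kept the order of the cultures.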
